A study of Mus musculus with 4 samples.

Results

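Otx2, Pou3f1, Fgf5, Foxd3 and Sox3, 5 regulators and markers of the formative state of pluripotency, were followed in nascent RNA of mouse embryonic stem (ES) cells with and without Supt3. The members were chosen by gene symbol. All 5 were found among 54146 mouse genes, and all 5 were among the 16789 genes that passed the filter on low counts. The compared groups were Supt3 KO ES cells (2 libraries) and Supt3 WT ES cells (2 libraries). Both were cultured with LIF and serum and labelled with 4-thiouridine (4sU), so that the purified RNA reports ongoing transcription (TT-seq), and both received labelled S. pombe RNA as a spike-in. Supt3 encodes a subunit of the transcriptional coactivator complex SAGA. The KO allele, the strain, the number of clones and whether libraries came from separate cultures are not stated in the labels. The p-values of the fits set the genotype difference against the spread between libraries of a genotype. That spread is estimated for each gene with the help of all tested genes, and part of it may be technical. The p-values may therefore not hold for separate cultures or clones.

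ES cells in LIF and serum hold naive pluripotency, and on release from it they pass through the formative state, that of the early post-implantation epiblast, before they can respond to lineage signals. Otx2, a homeodomain factor, and Pou3f1 (also called Oct6), a POU factor, are raised on that passage and act together at the enhancers of formative genes. Foxd3, a forkhead factor, helps to shut naive enhancers and to prime formative ones. Fgf5, a secreted growth factor, is the customary marker of the post-implantation epiblast, and Sox3 is a SOXB1 factor of epiblast and early neural tissue.

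The libraries held 13.1 M and 18.4 M mouse counts in KO replicates 1 and 2, and 13.5 M and 19.4 M in WT replicates 1 and 2 (M, 1e6). Supt3 itself stood at 123 and 140 CPM in KO and at 147 and 158 CPM in WT, where CPM stands for reads on the gene per 1e6 reads on mouse genes after TMM scaling (trimmed mean of M-values). Its log2 fold change was -0.22 ± 0.10 (SE, edgeR, adjusted p = 0.232), so the counts over the whole Supt3 gene do not check the genotype. Of 8 ES cell markers 7 were tested, and 1, Nanog, was lower and 0 were higher, beside 4.02% and 4.05% of all tested genes. Of the 7 log2 fold changes 6 were below 0 (median -0.23). Sox2 was listed at 0 in all 4 libraries. The Sox2 gene lies wholly inside Sox2ot on the same strand, and all 457 protein-coding genes that lie inside another gene on their own strand were listed at 0. Of the 743 that lie inside a gene on the other strand only, 27.3% were at 0, against 21.2% of the 11983 that no gene overlaps. Reads were thus counted over whole genes, introns included, with regard to strand, and a gene inside a same-strand gene has no usable value in these tables. Of the 5 members, Otx2 shares 10.7% of its length with a same-strand gene (Gm49154, at 0) and Foxd3 shares 3.83% (Gm23366, at 0). The other members share none.

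The start regions of the genes that fell in KO, Otx2 and Foxd3, are shown beside that of Fgf5, which was not called. The windows run from 250 bases before a RefSeq transcript start to 50 after it (GRCm38.p6, the mm10 build), and 3 of the 5 members matched an entry. Otx2 has 4 such windows, numbered from the most upstream, of which window 1 (chr14:48667595-48667894, minus strand) and window 3 (chr14:48665060-48665359, minus strand) are given. Those of Foxd3 (chr4:99656049-99656348) and Fgf5 (chr5:98253934-98254233) are on the plus strand. Capitals mark matches, on either strand, to 6 motifs. For the members' own factor families these were GGATTA, bound by OTX-type homeodomains, and the forkhead motif TGTTTAC. The POU octamer is ATTTGCAT, and ACAAAG is the SOX motif. Core promoter motifs were TATAAA for the TATA box and GGGCGG for the GC box.
Otx2 window 1: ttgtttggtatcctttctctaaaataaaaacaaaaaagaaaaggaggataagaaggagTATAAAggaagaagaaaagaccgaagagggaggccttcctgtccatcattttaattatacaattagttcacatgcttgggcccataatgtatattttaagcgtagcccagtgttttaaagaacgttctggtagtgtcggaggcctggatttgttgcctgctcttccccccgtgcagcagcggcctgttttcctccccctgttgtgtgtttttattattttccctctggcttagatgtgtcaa
Otx2 window 3: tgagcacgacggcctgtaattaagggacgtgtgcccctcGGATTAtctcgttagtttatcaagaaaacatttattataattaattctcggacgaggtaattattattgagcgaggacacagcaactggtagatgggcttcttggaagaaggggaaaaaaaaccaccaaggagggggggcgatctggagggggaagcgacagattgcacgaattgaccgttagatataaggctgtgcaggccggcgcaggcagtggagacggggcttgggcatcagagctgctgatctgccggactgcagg
Foxd3: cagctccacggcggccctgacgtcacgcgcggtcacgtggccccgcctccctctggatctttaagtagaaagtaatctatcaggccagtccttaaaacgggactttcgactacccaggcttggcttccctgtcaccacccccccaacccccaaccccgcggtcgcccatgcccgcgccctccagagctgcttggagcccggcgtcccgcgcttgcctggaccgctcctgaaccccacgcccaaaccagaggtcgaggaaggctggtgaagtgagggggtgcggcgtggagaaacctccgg
Fgf5: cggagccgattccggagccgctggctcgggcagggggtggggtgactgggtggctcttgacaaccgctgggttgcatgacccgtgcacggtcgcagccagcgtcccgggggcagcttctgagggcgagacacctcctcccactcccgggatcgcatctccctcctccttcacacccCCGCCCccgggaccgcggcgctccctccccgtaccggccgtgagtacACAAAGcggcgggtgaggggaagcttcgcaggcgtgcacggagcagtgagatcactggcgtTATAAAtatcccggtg
GGATTA stands once in Otx2 window 3, 211 bases before the start, and 7.06% of all 32851 windows hold it. Windows 2 and 4 of Otx2, which are not printed, hold none of the 6 motifs. The shares given are for a single window, while Otx2 was searched in 4. TATAAA stands once in Otx2 window 1, 192 bases before the start, and once in the Fgf5 window, 34 bases after the start (13.6% of all windows). The Fgf5 window also holds ACAAAG once (18.7%) and GGGCGG once, on the other strand (35.7%). TGTTTAC (3.65% of all windows) and ATTTGCAT (1.74%) are in none of the windows printed, and none of the 6 motifs is in the Foxd3 window. G and C make up 41.7% of Otx2 window 1, 51.0% of window 3, 65.7% of the Foxd3 window and 68.3% of the Fgf5 window, where the median of all windows is 52.7%.

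Otx2 and Foxd3 fell in KO, and Pou3f1, Fgf5 and Sox3 were not called. After TMM scaling, 2 of the 5 members were lower and 0 higher by edgeR's quasi-likelihood test (adjusted p under 0.05), which called 4.02% of all tested genes lower, 4.05% higher and 8.07% in either direction. Pou3f1 was the member with an unadjusted p under 0.05 that was not called. DESeq2 called the same 2 members lower and 0 higher, beside 3.37% of genes lower, 3.54% higher and 6.91% in all. The DESeq2 adjusted p of Foxd3 was 0.0488, just under 0.05. In limma voom the same 2 were lower and 0 higher, beside 4.08% of genes lower, 3.98% higher and 8.06% in all. With spike-in scaling 0 of the 5 members were called, beside 0.0953% of genes lower, 0.00596% higher and 0.101% in all. The authors' deposited table called 0 of the 5 and 0.0271% of its genes. By level alone, Otx2 and Foxd3 had both KO libraries below both WT libraries, as did 26.0% of tested genes, and Pou3f1 had both above, as did 26.7%.

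Otx2 had 19.8 and 24.6 CPM in KO, against 56.2 and 60.3 CPM in WT. Both KO libraries lay far below both WT libraries, and on the log2 scale the libraries of a genotype differed by 0.31 in KO and 0.10 in WT. The means were 22.2 ± 3.41 CPM in KO and 58.3 ± 2.93 CPM in WT (SD, n = 2 each). Relative to all mouse RNA, the fitted fold puts nascent Otx2 RNA in KO at 38.2% of the WT amount. The log2 fold change was -1.39 ± 0.13 (SE, 95% interval -1.67 to -1.10, edgeR, adjusted p = 0.00109). In bulk RNA, fewer cells that transcribe Otx2 and less transcription in each cell cannot be told apart. Otx2 (ENSMUSG00000021848) spans chr14:48657677-48673819 on the minus strand, with up to 6 exons in a transcript. Relative to the spike-in, Otx2 had 55.0 and 116 counts per 1e6 S. pombe counts in KO, against 185 and 334 in WT. The KO values were again below both WT values, but on that scale the libraries of a genotype differ widely. Mouse counts per S. pombe count were 2.71 and 4.86 in KO, and 3.25 and 5.60 in WT, lower in replicate 1 of each genotype. The fit with spike-in scaling gave -1.60 ± 0.71 (edgeR, adjusted p = 0.992, unadjusted p = 0.0235). Its biological coefficient of variation was 0.363, against 0.0952 with TMM scaling. No term for pairs of KO and WT libraries was tried with spike-in scaling. The spike-in fit shifted the median log2 fold change of all tested genes by -0.23 relative to the TMM fit. In the authors' deposited table, whose size factors run in proportion to the S. pombe counts, the log2 fold change of Otx2 was -1.12 with a p of 0.00352 and an adjusted p of 0.999. According to the table's name, the authors' fold changes carry a beta prior, which shrinks them towards 0. Their size is therefore not comparable with that of the edgeR values.

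Foxd3 had 12.1 and 13.3 CPM in KO, against 19.8 and 18.8 CPM in WT. The libraries of each genotype were close to each other, and the groups did not overlap. The means were 12.7 ± 0.84 CPM in KO and 19.3 ± 0.70 CPM in WT (SD, n = 2 each), or 66.1% of the WT amount by the fitted fold. The log2 fold change was -0.60 ± 0.14 (SE, 95% interval -0.91 to -0.29, edgeR, adjusted p = 0.0308). The call was lost without WT replicate 1 (edgeR, adjusted p = 0.0781) and without WT replicate 2 (0.0719), while the fold change stayed at -0.57 and -0.63. Foxd3 (ENSMUSG00000067261) is a gene of 1 exon at chr4:99656299-99658622 on the plus strand. Per 1e6 S. pombe counts it had 33.8 and 62.9 counts in KO, against 65.4 and 104 in WT. The spike-in fit gave -0.81 ± 0.64 (edgeR, adjusted p = 1.00). The authors' deposited table, with its beta prior, gave -0.57 with a p of 0.131.

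Pou3f1 had 33.0 and 23.5 CPM in KO, against 23.3 and 17.0 CPM in WT. The lower KO library was barely above the higher WT library, and in each genotype replicate 1, the library with fewer counted reads, was the higher. The log2 fold change was 0.49 ± 0.20 (SE, 95% interval 0.04 to 0.94, edgeR, adjusted p = 0.180). The test called Pou3f1 higher without WT replicate 1 (0.72, edgeR, adjusted p = 0.00533) and without KO replicate 2 (0.73, adjusted p = 0.000421), and not without the others. Pou3f1 (ENSMUSG00000090125) has 1 exon and spans chr4:124656807-124660655 on the plus strand.

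Fgf5 had 21.8 and 15.6 CPM in KO, against 17.4 and 11.4 CPM in WT. The groups overlapped, and replicate 1 was again the higher in both genotypes. The log2 fold change was 0.38 ± 0.23 (SE, 95% interval -0.13 to 0.90, edgeR, adjusted p = 0.363). Without WT replicate 1 it was 0.70 (edgeR, adjusted p = 0.0236) and without KO replicate 2 it was 0.62 (0.0131), and both passed the test. Without WT replicate 2 it was 0.10, and without KO replicate 1 it was 0.14. Fgf5 (ENSMUSG00000029337) spans chr5:98254184-98277030 on the plus strand and has up to 3 exons.

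Sox3 was close to the limit of these libraries, with 18 and 12 reads in KO and 15 and 15 reads in WT. The means were 1.00 ± 0.467 CPM in KO and 0.940 ± 0.222 CPM in WT (SD, n = 2 each). The groups overlapped, and the log2 fold change of 0.07 ± 0.46 (SE) had a 95% interval from -0.96 to 1.11 (edgeR, adjusted p = 0.949). A change of the size seen for Foxd3, in either direction, lies within that interval. Sox3 (ENSMUSG00000045179) has 1 exon and spans chrX:60891366-60893430 on the minus strand.

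**Figure D1:**
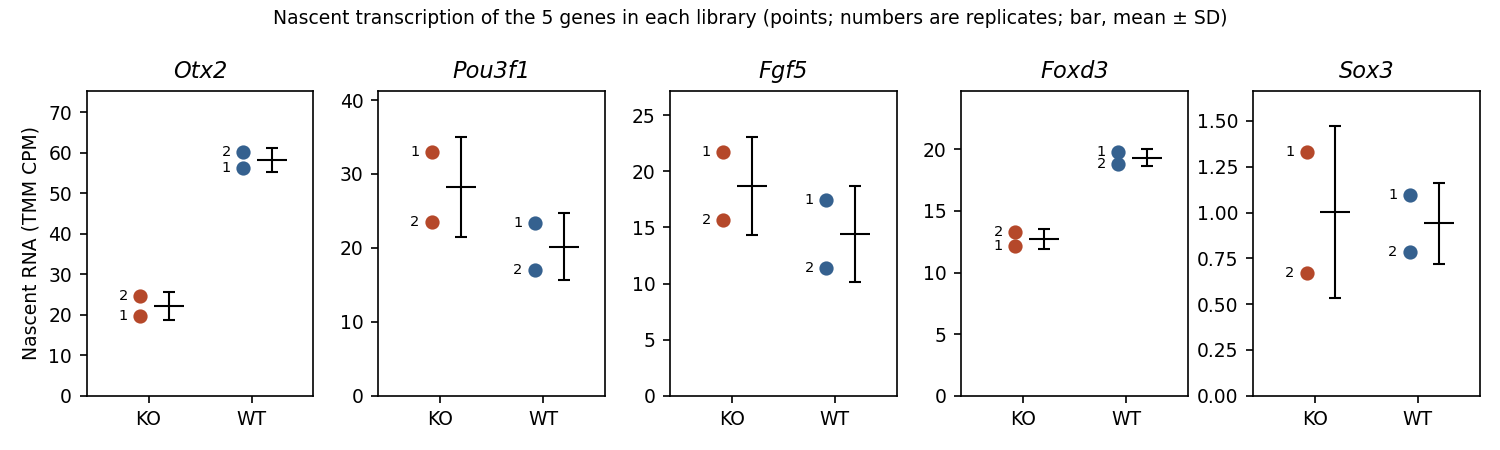
TMM-scaled CPM (y axes, linear, from 0) of Otx2, Pou3f1, Fgf5, Foxd3 and Sox3 in each KO and WT library (points, numbered by replicate), with the mean ± SD of each genotype. For Otx2 (19.8 and 24.6 in KO, 56.2 and 60.3 in WT) and Foxd3 the genotypes stand apart, and for Fgf5 and Sox3 they overlap.

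The libraries fall into a pair with fewer and a pair with more counted reads, each with 1 KO and 1 WT library. Between KO and WT of the pair with fewer reads, the log2 difference was -1.51 for Otx2, -0.71 for Foxd3, 0.50 for Pou3f1, 0.32 for Fgf5 and 0.28 for Sox3. In the pair with more reads it was -1.30 for Otx2, -0.50 for Foxd3, 0.47 for Pou3f1, 0.46 for Fgf5 and -0.22 for Sox3. The 4 better transcribed members kept their sign in both pairs, and Sox3 did not. These are single libraries, compared with no test. A fit with the depth pair as a term, added after the data were seen, called Pou3f1 (0.48 ± 0.11, edgeR, adjusted p = 0.000127) and Fgf5 (0.39 ± 0.13, edgeR, adjusted p = 0.0132) higher. It called Otx2 and Foxd3 lower and did not call Sox3, so that 2 of the 5 members were higher and 2 lower. The same fit called 13.2% of all tested genes higher, 12.5% lower and 25.7% in either direction, and it leaves 1 residual degree of freedom per gene. The pairs come from the read totals and not from the labels.

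Ratios of members within a library need no scaling between libraries. There were 0.599 and 1.05 Otx2 counts for each Pou3f1 count in KO, against 2.41 and 3.56 in WT. For each Fgf5 count there were 0.908 and 1.57 Otx2 counts in KO, against 3.23 and 5.30 in WT. Both ratios were lower in each KO library than in each WT library, by 1.89 and 1.79 on the log2 scale. Otx2 was lower relative to Foxd3 too, with 1.63 and 1.84 Otx2 counts for each Foxd3 count in KO and 2.83 and 3.20 in WT. This ratio varied least between libraries of a genotype among those of Otx2, with a log2 mean of 0.79 ± 0.13 in KO and 1.59 ± 0.12 in WT (SD, n = 2 each). Pou3f1 and Fgf5 kept close to a constant ratio, at 1.52 and 1.50 Pou3f1 counts for each Fgf5 count in KO and 1.34 and 1.49 in WT, a log2 difference of 0.09. Both stood higher relative to Foxd3, with 2.72 and 1.76 Pou3f1 counts for each Foxd3 count in KO against 1.18 and 0.900 in WT. For Fgf5 per Foxd3 the ratios were 1.79 and 1.17 in KO, against 0.878 and 0.604 in WT. These log2 differences, 1.09 and 0.99, were larger in size than that of Otx2 per Foxd3 (-0.80). Of the 10 pairs of members, 9 had ratios that did not overlap between the genotypes, and each of the 9 had the smallest p this design allows (exact two-sided permutation test, p = 0.333, adjusted p = 0.370 over the 10 pairs). With 2 libraries a genotype the test cannot pass 0.05. Among tested genes, TMM-scaled levels of 52.7% did not overlap between the genotypes. That share is for levels of single genes, and no such share was computed for ratios. The 10 pairs are built from the same 5 members and are not independent.

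The order of the members by level per length changed between the genotypes. Per kb of gene, the KO mean was 7.34 CPM for Pou3f1, 5.48 for Foxd3, 1.37 for Otx2, 0.818 for Fgf5 and 0.486 for Sox3. The WT mean was 8.32 CPM per kb for Foxd3, 5.24 for Pou3f1, 3.61 for Otx2, 0.630 for Fgf5 and 0.455 for Sox3. Per kb of gene, Foxd3 led in both WT libraries and Pou3f1 in both KO libraries. Fgf5 and Sox3 overlapped in WT, at 0.762 and 0.498 against 0.531 and 0.379 CPM per kb, and no other neighbours in either order did. These values hold intronic reads for Otx2 and Fgf5, while the other members have no introns. The order depends on the length used. Per kb of exon, the same reads put Otx2 first by the WT mean (13.8 CPM per kb, with Foxd3 at 8.32). By the KO mean, Fgf5 was first (7.48 CPM per kb of exon, with Pou3f1 at 7.34).

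Non-coding RNAs beside Otx2 (Otx2os1) and Foxd3 (Gm12682) were lower in KO too, while Gm12688, nearer to Foxd3, was not called. Otx2os1, a long non-coding RNA of the other strand, had 15.2 and 12.9 CPM in KO, against 36.2 and 31.5 CPM in WT. Its groups did not overlap either, and its log2 fold change was -1.27 ± 0.14 (SE, edgeR, adjusted p = 0.00178). It spans chr14:48668708-48870683 on the plus strand and starts 1064 bases from the most upstream RefSeq start of Otx2, in the opposite direction. In the deposited coordinates, 5112 bases of Otx2os1 overlap Otx2. There were 1.30 and 1.91 Otx2 counts for each Otx2os1 count in KO, and 1.55 and 1.91 in WT. That ratio overlapped between the genotypes. Gm49120, a rare long non-coding RNA 61.3 kb past the end of Otx2, had 0.222 and 0.280 CPM in KO, against 1.17 and 0.940 CPM in WT (edgeR, adjusted p = 0.0389, with no adjusted p from DESeq2). Its call was lost without any one of the 4 libraries (edgeR, adjusted p from 0.0664 to 0.161).

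The other genes around Otx2 were not called. Of 33 genes within 500 kb of either end, 7 were tested, 2 were lower (those just named) and 0 were higher. Of all tested genes 4.02% were lower and 4.05% higher. The median log2 fold change of the 7 was 0.04, beside 0.01 for all tested genes. The nearest tested coding gene, Tmem260, had 24.2 and 25.1 CPM in KO and 24.1 and 23.8 CPM in WT. The tested coding genes of the stretch ranged from -0.06 to 0.25 on the log2 scale.

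Around Foxd3, 10 of 23 genes were tested, of which 1 was lower and 1 higher (median log2 fold change -0.04), beside 4.02% and 4.05% of all tested genes. The lower one was Gm12682, a non-coding RNA of the other strand that ends 3.92 kb past Foxd3, at chr4:99662541-99712972. It had 0.889 and 1.18 CPM in KO, against 3.44 and 4.12 CPM in WT, and its log2 fold change was -1.85 ± 0.31 (SE, edgeR, adjusted p = 0.00920). There were 13.7 and 11.3 Foxd3 counts for each Gm12682 count in KO and 5.77 and 4.57 in WT, values that do not overlap. Gm12688, the non-coding gene 1.32 kb before Foxd3 on the other strand, was singled out after its values were seen. It had 2.22 and 3.02 CPM in KO, against 3.44 and 4.07 CPM in WT (log2 fold change -0.51 ± 0.27, edgeR, adjusted p = 0.299), and was not called. The higher gene, Gm12702, lies 394 kb away (1.28 ± 0.28), and its call was lost without WT replicate 1 (edgeR, adjusted p = 0.0782).

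Pou3f1 and Sox3 had 0 called neighbours among 19 and 2 tested genes. The antisense gene Gm2164, which overlaps Pou3f1 by 363 bases, had 20.8 and 17.8 CPM in KO and 16.4 and 15.8 CPM in WT (log2 fold change 0.26 ± 0.14, edgeR, adjusted p = 0.312). Of the 4 tested neighbours of Fgf5, 1 was higher and 0 lower, beside 4.05% and 4.02% of all tested genes. This was Antxr2, a receptor for anthrax toxin and extracellular matrix 223 kb away. It rose to 10.5 and 10.9 CPM in KO, against 4.90 and 4.59 CPM in WT (1.18 ± 0.18, edgeR, adjusted p = 0.00634). Prdm8, 65.2 kb away and singled out after its values were seen, had a log2 fold change of 1.15 (edgeR, adjusted p = 0.0802).

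**Figure D2:**
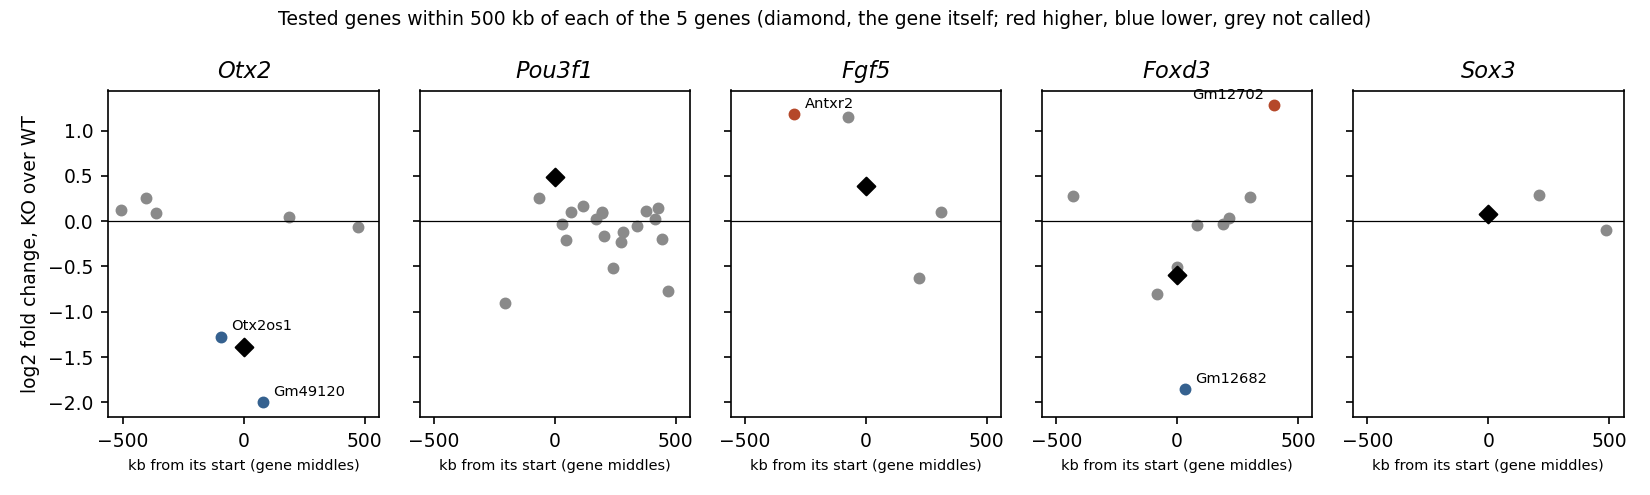
Log2 fold change of KO over WT (y axis) for tested genes within 500 kb of each member, placed by the distance in kb of the gene's middle from the member's start, downstream to the right. The diamond is the member, and called genes are named. Otx2 (-1.39) and Otx2os1 (-1.27) stand well below the tested coding genes around them.

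Most close relatives of the members had too few reads to be tested. Of 12 genes of the same subfamilies, 11 did not pass the filter. Of these, 3 have no usable value: Sox1, Sox2 and Pou3f3 were listed at 0, and each lies wholly inside a same-strand gene. The others had at most 0.470 CPM in any library. Otx1 and Crx, the other OTX genes, had at most 0.470 and 0.0741 CPM. Pou3f2 and Pou3f4 had at most 0.365 and 0.296 CPM, and Foxd1, Foxd2 and Foxd4 at most 0.293, 0.148 and 0.148 CPM. Fgf6 had at most 0.148 CPM. The 1 tested relative was Fgf4, the growth factor whose autocrine signal drives ES cells out of the naive state. It fell to 40.4 and 45.4 CPM in KO, against 71.7 and 68.7 CPM in WT (-0.71 ± 0.10, edgeR, adjusted p = 0.00476).

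Other formative genes were called in both directions. Of 25 listed genes, all of which were tested, 4 were lower, 2 were higher and 19 were not called. Of all tested genes 4.02% were lower and 4.05% higher. The median log2 fold change of the list was 0.01, as was that of all tested genes. The lower genes were Zic5 and Zic2, zinc finger factors that lie beside each other (21.7 ± 6.07 against 45.1 ± 0.41 CPM, and 16.6 ± 2.11 against 32.8 ± 2.58 CPM, KO before WT), with log2 fold changes of -1.04 ± 0.17 and -0.97 ± 0.13. Lef1, a nuclear effector of Wnt signalling, had 89.0 ± 5.50 CPM in KO and 149 ± 1.31 CPM in WT (-0.74 ± 0.09, edgeR, adjusted p = 0.00272). The de novo DNA methyltransferase gene Dnmt3a had 64.7 ± 1.11 CPM in KO and 101 ± 6.94 CPM in WT (-0.64 ± 0.09, edgeR, adjusted p = 0.00545), while Dnmt3b was not called (-0.12 ± 0.09, adjusted p = 0.481). The higher genes were Tcf15, a basic helix-loop-helix factor (58.2 ± 3.40 CPM in KO and 39.3 ± 4.23 CPM in WT, 0.56 ± 0.11), and the ligand gene Wnt8a (3.51 ± 0.69 and 1.33 ± 0.19 CPM, 1.40 ± 0.30, SD and n = 2 for the levels and SE for the changes). Tcf15 was not called without WT replicate 1 (edgeR, adjusted p = 0.0635), and Wnt8a was not called without WT replicate 2 (0.118). The most abundant uncalled genes were Foxp1 (689 CPM in KO and 599 CPM in WT), Etv5 (566 and 695), Grhl2 (298 and 300.1) and the Nodal co-receptor gene Tdgf1 (231 and 224). The number of higher genes ranged from 1 without WT replicate 2 to 8 without KO replicate 2.

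**Figure D3:**
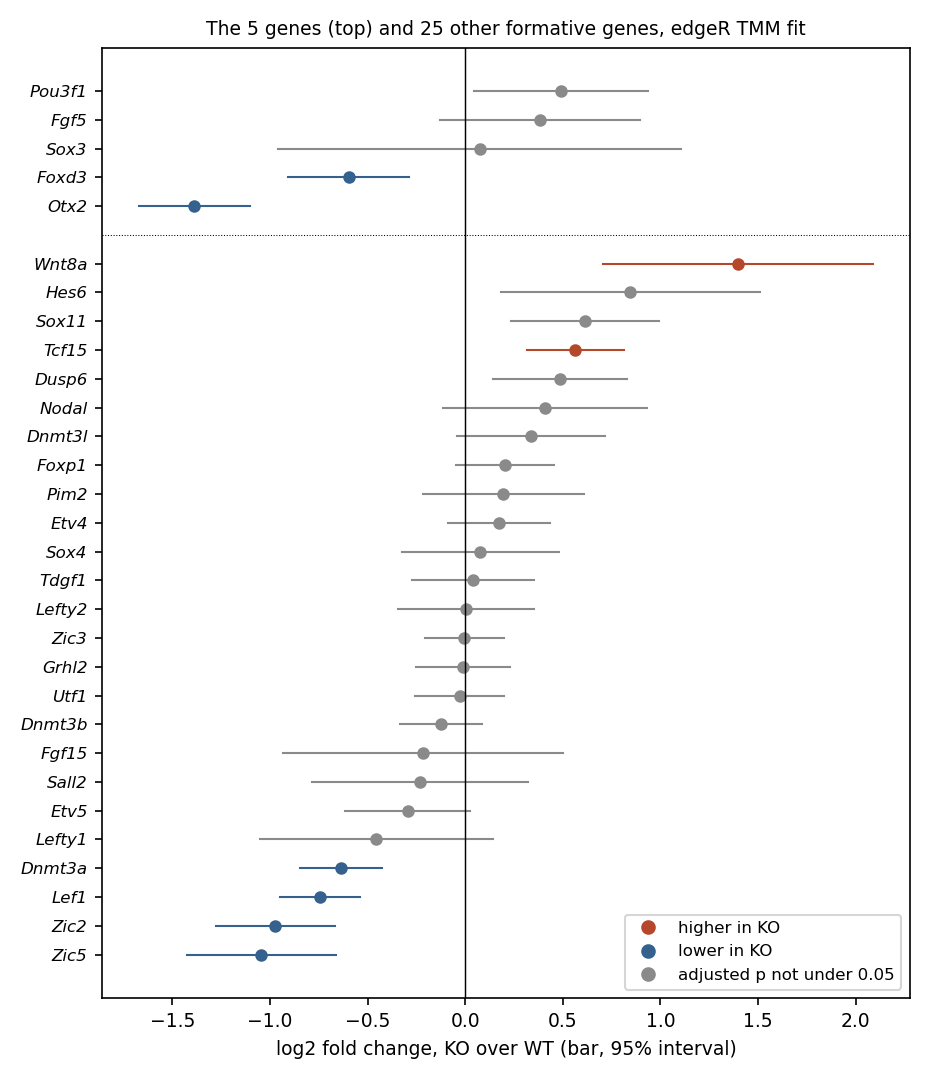
Log2 fold change of KO over WT in the TMM fit (x axis) with its 95% interval, for the 5 members (above the dotted line) and 25 other formative genes, coloured by the call. Otx2 (-1.39) lies below every listed gene, Zic5 (-1.04) being the next.

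Of 26 listed regulators of exit from the naive state, Fgf4 (given above) was the 1 lower gene by each of the 3 tools, where edgeR called 4.02% of all tested genes lower. None was higher (0 by each tool), and 3 had an unadjusted edgeR p under 0.05. The median log2 fold change was -0.04. Among the most abundant were Jarid2 (3883 CPM in KO and 4371 CPM in WT), the Notch effector gene Rbpj (1407 and 1821) and Foxp1, which is on both lists. Tcf7l1, the repressor of the naive network downstream of Wnt, was not called (-0.33 ± 0.12, edgeR, adjusted p = 0.140). It was singled out after its values were seen. Without KO replicate 2, 5 of the 26 were lower.

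Genes that precede and follow the formative state were counted in the same way, with no test of a difference between the lists. Of 13 naive factors 6 were lower and 0 higher (0 lower with spike-in scaling), where edgeR called 4.02% of all tested genes lower and 4.05% higher. Their median log2 fold change was -0.73, and it ranged from -1.07 without KO replicate 2 to -0.46 without KO replicate 1. The number of lower genes was 11 without KO replicate 2, 10 without WT replicate 1, 8 without KO replicate 1 and 5 without WT replicate 2. Of 16 primed and gastrulation genes 7 passed the filter, and each of edgeR, DESeq2 and limma voom called 0 of them (2 had an unadjusted edgeR p under 0.05, and the median was 0.15). Eomes, one of its transcription factors, had 4.37 and 3.08 CPM in KO and 3.37 and 3.29 CPM in WT.

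Markers of another lineage that also transcribes Otx2, the primitive and visceral endoderm, were higher. Of 12 listed genes 11 were tested and 9 rose with TMM scaling, where 4.05% of all tested genes were called higher. With spike-in scaling 0 were called. The summed level of the 12 genes was 1252 and 1679 CPM in KO, against 638 and 734 CPM in WT. None was at 0 in all libraries, and Afp reached at most 0.148 CPM. Of 8 neural markers 3 were tested, with Nes higher and Olig3 lower. Olig3 had under 1 CPM in each library, and its call was lost without KO replicate 1 (edgeR, adjusted p = 0.121), WT replicate 1 (0.0531) or WT replicate 2 (0.164). The neural sum was 58.9 and 52.3 CPM in KO and 43.3 and 37.3 CPM in WT. Tubb3 and Sox1 were listed at 0. Sox1 lies wholly inside a same-strand gene and has no usable value, and for Tubb3 such cover was not looked up. The 8 fibroblast markers, which feeder cells would carry, summed to 6.96 and 6.11 CPM in KO and 6.73 and 5.53 CPM in WT. The 8 ES cell markers, of which Sox2 has no usable value, summed to 1373 and 1645 CPM in KO, against 2011 and 2045 CPM in WT. The part of these shifts in the values of Otx2 and Foxd3 was not tested.

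The genes most like each member were found by the Euclidean distance between log2(CPM + 1) profiles over the 4 libraries, each centred on its own mean, among 11909 other coding genes of at least 2 CPM. Nearest to Otx2 were Dlgap3 (distance 0.0805), Ddx3y, Slco4c1, Pramel7 and Crtac1 (0.122), all of them lower in KO. Ddx3y lies on chromosome Y. Pramel7 had 9 and 16 reads in KO and a log2 fold change of -2.11, larger in size than that of Otx2. The 1 added to each CPM shrinks that change in the profile. Dlgap3 had 13.0 and 16.0 CPM in KO, against 36.7 and 42.4 CPM in WT. Nearest to Foxd3 were Prelid2 (0.0291), Vsir and the cell cycle inhibitor gene Cdkn1b, of which Prelid2 and Cdkn1b were lower and Vsir was not called. The call of Cdkn1b was lost when either WT library was left out (edgeR, adjusted p = 0.136 without replicate 1 and 0.0719 without replicate 2). Ppfia2, Abcd4 and Cd109 were nearest to Pou3f1, and Palm2, Gulo and Capsl to Fgf5, and none of these 6 was called (edgeR, adjusted p from 0.213 to 0.447, where 1, Cd109, had an unadjusted p under 0.05). For Sox3, at 12 to 18 reads a library, the nearest were Siva1, Kcnip3 and Chd5. With 4 libraries many genes share a profile, so these names describe likeness only. The likeness and the calls rest on the same 4 libraries, so the calls of these genes are no separate result.

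**Figure D4:**
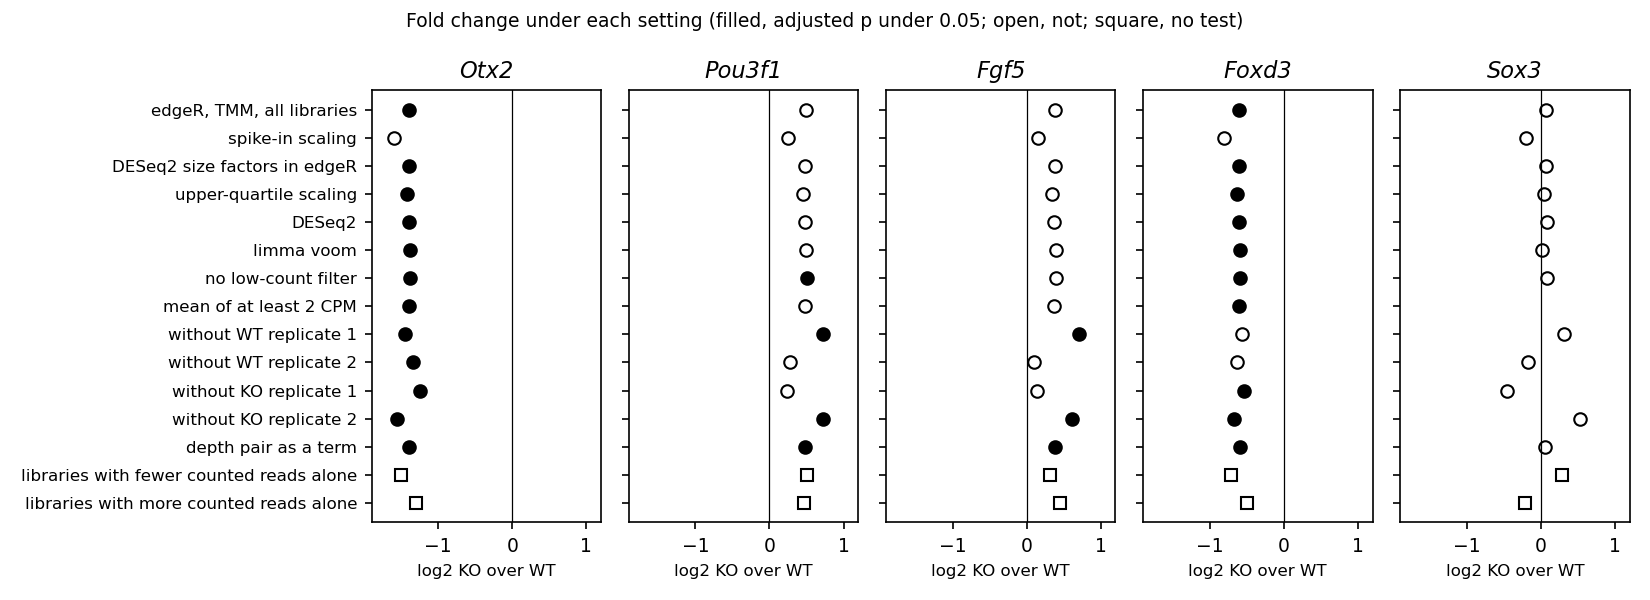
Log2 fold change of KO over WT (x axes) of each member under each scaling, test, filter, depth pair term and choice of libraries (rows). Filled circles have an adjusted p under 0.05, open circles do not, and squares are single libraries with no test. Otx2 lies between -1.60 and -1.25 in every row, and Sox3 lies on both sides of 0.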

How the data were processed

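Nascent RNA (TT-seq) of 2 Supt3 KO and 2 Supt3 WT mouse ES cell libraries was analysed from gene tables. Raw counts per mouse and S. pombe gene were deposited. The submitters' processing notes list STAR 2.5.3, HTSeq 0.6.1p1, cutadapt 1.10, DESeq2 1.16.1, bcl2fastq 2.20.0.422 and the build mm10, with no roles. The authors' comparison table repeats the counts and adds normalized signal (counts divided by a size factor, per the file headers), the authors' log2 fold changes (KO over WT, with a beta prior according to the table's name) and p-values. Its coordinates of all 5 members equal those of GENCODE M21.

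Genes were kept by filterByExpr (minimum count 10) and tested with edgeR 4.0.16 (R 4.3.3) by quasi-likelihood, with TMM factors of mouse genes and Benjamini-Hochberg adjustment over all tested genes. The biological coefficient of variation was 0.0952. SE is the log2 fold change over the square root of F, and intervals are 95%. Alternatives were spike-in (S. pombe total times its TMM factor), median-of-ratios and upper-quartile scaling, DESeq2 1.42.0, limma voom 3.58.1, other filters, a term for the pair of libraries with fewer or more counted reads (chosen after seeing the data) and each library left out, which assumes that a lone library varies like the other genotype's pair. Replicates were numbered in accession order. The fit was tested on simulated data.

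Members, lists and tests were chosen with earlier results of these data known. Named were the members, Supt3, called and up to 4 of the most abundant uncalled genes of the formative and exit lists, relatives, overlapping and up to 3 called neighbours, and the nearest profiles (5 for Otx2, 3 for others; no predicted models). One gene that this rule names is not reported here.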

Additional observations from a re-analysis of the deposited data

How the results depend on the processing

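Otx2 was lower in every setting, and its call was lost with spike-in scaling (-1.60). Without 1 library its log2 fold change ranged from -1.56 to -1.25, that of Foxd3 from -0.67 to -0.53, that of Pou3f1 from 0.23 to 0.73, that of Fgf5 from 0.10 to 0.70 and that of Sox3 from -0.45 to 0.53. Spike-in scaling also ended the call of Foxd3 (-0.81) and turned Sox3 (-0.20), which had the other sign in the pair with more counted reads as well (-0.22), without WT replicate 2 (-0.17) and without KO replicate 1 (-0.45). Foxd3 stood at -0.71 and -0.50 in the pairs with fewer and more counted reads. With no low-count filter Pou3f1 was called (0.50).

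Over all genes, 680 were higher and 675 lower. Spike-in scaling gave 1 and 16, no low-count filter 1260 and 1200, and leaving out 1 library 379 to 1482 and 439 to 1342. The formative list had 2 higher and 4 lower genes, or 0 and 0 with spike-in scaling and 7 higher with no filter, and leaving out 1 library gave 1 to 8 higher and 4 to 6 lower. The exit list had 1 lower gene, 0 with spike-in scaling, 2 with no filter and 1 to 5 without 1 library. The causes were not tested. Sox3 had no value with a minimum of 2 CPM. Of the ratios between members, none changed sign without 1 library. No analysis paired by the labels was possible, because they carry no replicate numbers to pair libraries by. A term for the depth pair, taken from the read totals and chosen after seeing the data, made Pou3f1 (0.48) and Fgf5 (0.39) called. It gave 2214 higher and 2093 lower genes over all, 8 higher formative genes, and 1 higher and 6 lower exit genes. Of the naive list 12 were lower with this term, 11 with no low-count filter and 0 with spike-in scaling, which also left 0 endoderm markers called. Sox3 had 12 to 18 reads a library.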
